A study of Drosophila melanogaster with 23 samples.

Results

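RNA levels were compared between whole female flies kept as adults at 28 °C and whole female flies kept at 18 °C. A rise or fall named below for a protein or process is one of RNA, and no protein or activity was measured. Libraries were taken by the sex and temperature in their labels, which gave 4 libraries at 28 °C and 4 at 18 °C, 8 of the 23 in the study. All were virgin females of the w1118 strain, and each library was a pool of 10 flies. The females at 28 °C were 35 days old and those at 18 °C were 45 days old, so temperature and age cannot be told apart in this comparison. Females at 24 °C, also 45 days old, and males of the same strain (3 libraries at 28 °C, 35 days old, and 4 at 18 °C, 45 days old) are used only beside individual results. Development and early adult life took place at 24 °C in every group, and by the study's account a large part of the 28 °C cohort had already died when its flies were frozen, so those libraries represent survivors.

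Flies are ectotherms, and the temperature of the surroundings sets the rate of their metabolism. The adult fat body combines the roles of liver and adipose tissue: it stores fat and glycogen, makes yolk and lipoproteins, and secretes antimicrobial peptides. The midgut secretes digestive enzymes, the Malpighian tubules act as kidneys, and the antennae carry the odorant receptors and their binding proteins. The ovary makes up a large part of a female's RNA, and it relies on steady protein synthesis.

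Library totals of the 8 libraries lay between 21998441 and 23194619 expected counts, the reads per gene as estimated when a read that fits several genes is shared among them. One predicted transcript without a gene name held 5.16% to 6.05% of the counts at 28 °C and 7.14% to 9.54% at 18 °C. The first principal component separated the temperatures and held 75% of the variance. The second, with 9.67%, set 28 °C replicate 1 (32.6) and replicate 4 (-22.8) at its ends, with the other libraries between -14 and 10.1. Germline and eye markers were present in every library, but neither is specific to females. The germline gene vas had 164 to 217 CPM (reads of a gene scaled to a common library size, with TMM factors) at 28 °C and 174 to 207 CPM at 18 °C. The eye gene ninaE had 1451 to 2391 CPM at 28 °C and 2191 to 2534 CPM at 18 °C. Male accessory gland markers were not analysed here. Of 4 testis genes tested, 1 rose and 1 fell.

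The spread between libraries gave a biological coefficient of variation of 0.148. Of 10355 genes tested with edgeR's quasi-likelihood test, 1908 rose and 1582 fell at an adjusted p under 0.01. These are 18.4% and 15.3% of the genes tested, the background against which the counts below are read. Rises were larger than falls: 335 genes rose by more than 4-fold and 43 fell by more than 4-fold. Across all genes the median log2 fold change was -0.04. Higher genes were 54.7% of the calls with TMM scaling and 42.1% when libraries were scaled by their totals, where the median of all genes moved to -0.14. Small changes, on the order of this shift, therefore depend on the scaling. Without 28 °C replicate 1, 4418 genes passed. The 4 libraries at each temperature did not overlap in 44.8% of the genes tested. The plot of list shares gives the pattern across tissues and families.

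**Figure D1:**
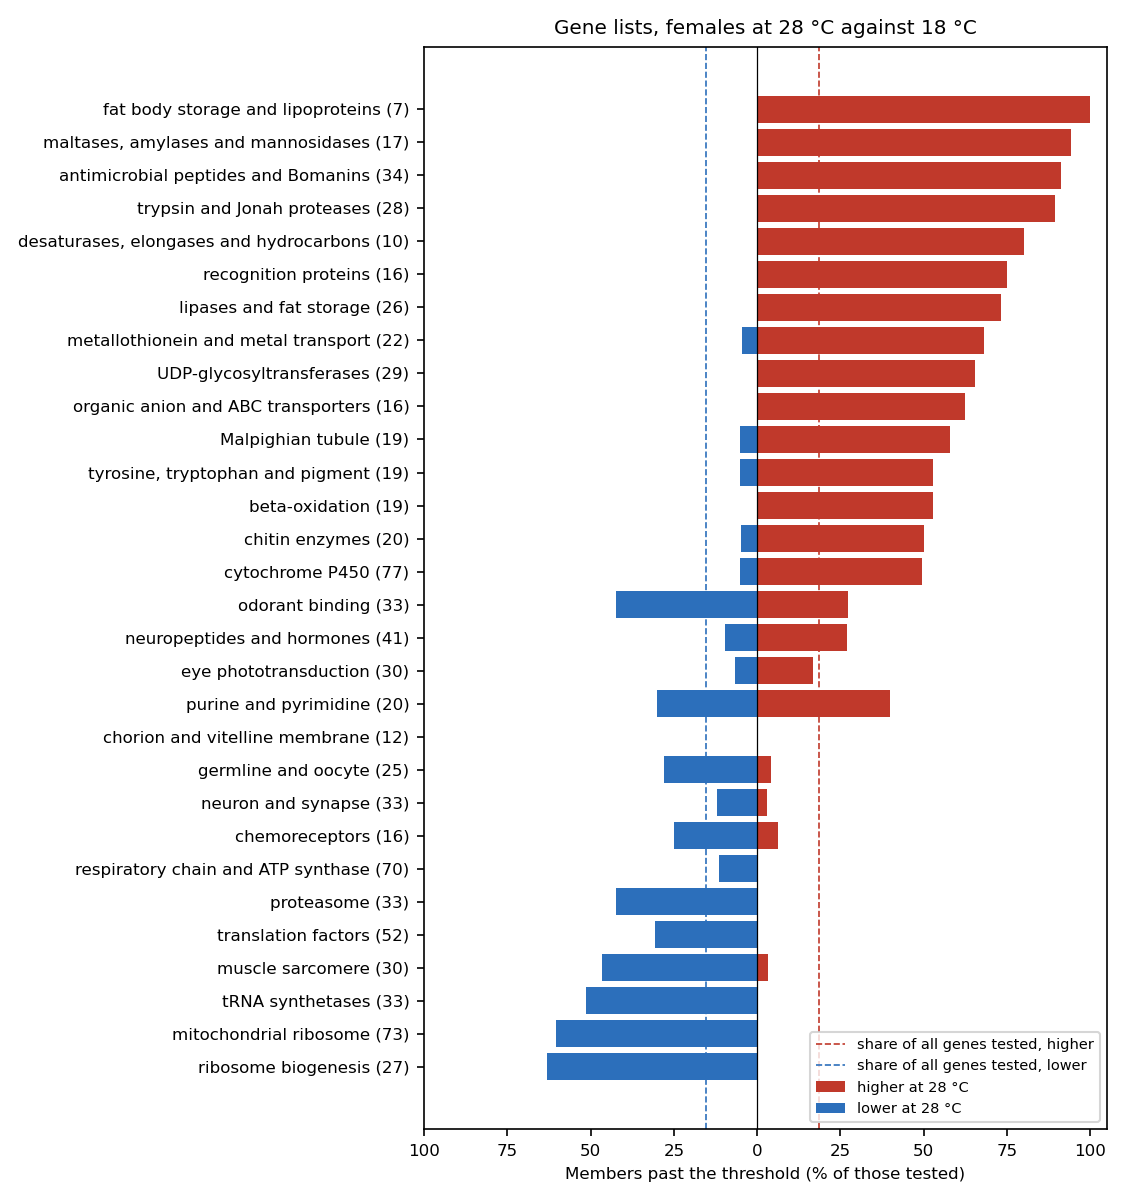
Share of tested members of 30 gene lists that were higher (red, right) or lower (blue, left) at 28 °C than at 18 °C in females, in percent, with the number of tested members in brackets. Dashed lines mark the shares over all genes tested, 18.4% higher and 15.3% lower. The 30 lists were picked by hand from 78. Storage, digestive, immune and lipid lists lie far to the right, and protein synthesis and muscle lists lie to the left.

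The largest rise of any gene that passed was in a storage protein of the fat body. Lsp2, a hexamerin that carries amino acids in the blood (chromosome 3L, 12129393 to 12131869, dm6), had 1329.8, 2078, 2377 and 348 CPM in the 4 libraries at 28 °C, against 0.641, 0.472, 0.0434 and 0.429 CPM at 18 °C. Replicate 4 was the lowest library at 28 °C and still lay far above every library at 18 °C, where the gene was close to its detection limit with 37 reads in all. Its log2 fold change was 11.89 (standard error 0.81, edgeR adjusted p = 6.7e-06), and at 24 °C it was as low as at 18 °C, with 0.172 to 0.362 CPM. Lsp1beta, a larval serum protein of the same class, had 335, 465, 515 and 41.3 CPM at 28 °C and 3.72, 2.66, 1.43 and 2.61 CPM at 18 °C. For it, too, replicate 4 was the lowest at 28 °C.

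The 7 tested members of the fat body list rose, with a median log2 fold change of 1.57. The filter on low values was a mean of at least 0.5 CPM over the 8 libraries. Lsp2, under 0.5 CPM on average at 18 °C, passed it through its level at 28 °C. Without Lsp2, 6 of 6 rose, with a median of 1.39. The gene fit, which encodes a secreted satiety signal made mainly in females, had 601 ± 132 CPM at 28 °C against 31.6 ± 10.5 CPM at 18 °C (± SD of 4 libraries). apolpp, the precursor of the main lipid carrier of the blood, had 1876 to 2737 CPM at 28 °C and 566 to 1019 CPM at 18 °C, a smaller change at a higher level. In pooled whole flies, a change in the number of cells of a type and a change in RNA per cell cannot be told apart.

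Yolk proteins, made in fat body and ovarian follicle cells and taken up by the oocyte, also rose. Yp1 had 22493, 25922, 23994 and 27807 CPM at 28 °C and 2252, 3454, 1737 and 4416 CPM at 18 °C, without overlap. The log2 fold changes were 3.08 for Yp1, 2.51 for Yp2 and 2.34 for Yp3 (standard errors 0.28, 0.26 and 0.24). The yolk receptor yl did not pass, with 725 to 988 CPM at 28 °C and 953 to 1079 CPM at 18 °C (edgeR adjusted p = 0.0273).

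Eggshell genes varied widely within a temperature. Of the 12 chorion and vitelline membrane genes tested, 0 passed in edgeR and 0 in DESeq2, and 2 were higher at an unadjusted p under 0.05. Their median log2 fold change was 0.97, and all 12 were positive, from 0.28 to 2.20. Summed over the list, they held 1807 to 2208 CPM at 28 °C and 290 to 1675 CPM at 18 °C, without overlap. dec, an eggshell matrix gene, had 469, 489, 225 and 371 CPM at 28 °C and 83.3, 178, 10.3 and 232 CPM at 18 °C, so the groups overlapped.

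Genes of the germline and oocyte changed by small amounts. Of 25 tested, 7 fell and 1 rose, the rise being lost without 28 °C replicate 2 or 18 °C replicate 1, 2 or 3. The share of falls was 28%. Without 28 °C replicate 1, 11 fell, and without any other library 6 fell. grk, the ligand that sets the axes of the egg, had 21, 21, 22.6 and 22.8 CPM at 28 °C and 42.2, 40, 40.5 and 35.1 CPM at 18 °C (log2 fold change -0.85). png and gnu, which encode a kinase and its activator used at egg activation, had log2 fold changes of -0.91 and -0.64, and the RNA-binding regulator orb had -0.71. osk, which localizes the germ plasm, had 696 ± 91.5 CPM at 28 °C against 1018 ± 67.7 CPM at 18 °C (± SD of 4 libraries). vas and nanos, by contrast, differed by less than the spread between libraries: nanos had 256 to 366 CPM at 28 °C and 289.5 to 339 CPM at 18 °C. In the piRNA pathway, which silences transposons in the gonads, 6 of 26 fell, among them rhi and moon (log2 fold changes -0.74 and -0.58), and mino rose (0.52). These falls were 23.1% of the list, against 15.3% of all genes. Without 28 °C replicate 1, 11 of them fell, and without any other library 4 or 5 fell.

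Digestive enzymes of the midgut rose as a group. Of 17 tested maltases, amylases and lysosomal mannosidases, 16 rose, with a median log2 fold change of 3.31. LManIII, a mannosidase (chromosome 2L, 8765273 to 8768710, dm6), had 125 to 287 CPM at 28 °C and 1.91 to 4.03 CPM at 18 °C, a log2 fold change of 6.03 (standard error 0.34, edgeR adjusted p = 3.08e-06). Mal-A3, a maltase, had 153, 203, 272 and 157 CPM at 28 °C and 5.68, 8.1, 5.29 and 9.52 CPM at 18 °C. Amy-p, which digests starch, had 1531, 2656, 2935 and 2433 CPM at 28 °C and 181, 297, 247 and 226 CPM at 18 °C. In all 3 genes replicate 1 was the lowest library at 28 °C and lay well above the 18 °C range. Mal-A5 did not pass, at a log2 fold change of -0.05.

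Of 28 tested trypsin and Jonah proteases, 25 rose, with a median of 1.62. Summed over the list, they held 11006 to 17477 CPM at 28 °C and 4533 to 6056 CPM at 18 °C. Jon99Ci, a chymotrypsin-like protease, had 203, 325, 428 and 308 CPM at 28 °C and 17.3, 22.6, 15.7 and 23.3 CPM at 18 °C. deltaTry, a trypsin, had 561, 861, 996 and 880.3 CPM at 28 °C and 70.4, 99.4, 81.7 and 92.5 CPM at 18 °C. The members that did not pass were alphaTry, Jon65Aii and Jon74E, at log2 fold changes of 0.55, 0.12 and 0.11. Many of these genes have close copies among which reads were shared, so the values of single copies are less certain than the list.

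Lysozymes, which digest bacterial cell walls in the gut, split. LysB, LysD and LysE rose with log2 fold changes of 3.45, 2.33 and 2.99, whereas LysP, a lysozyme of the adult salivary glands, fell. LysP had 10.2, 20.9, 21.4 and 26.9 CPM at 28 °C and 99.2, 115, 118 and 87.1 CPM at 18 °C. The sterol transporter of the gut Npc1b had 69, 95.9, 94.3 and 107 CPM at 28 °C and 7.65, 10.7, 10.5 and 4.84 CPM at 18 °C, and 6 of 10 members of its list rose. Of 15 peritrophic and mucin genes, which line the gut, 7 rose and 1 fell. For 1 of them the mean lay under 0.5 CPM only at 18 °C, and among the other 14, 6 rose and 1 fell. CG10725, whose product has chitin-binding domains, was among the largest falls of all genes, with 12.3, 16.4, 16.7 and 20.5 CPM at 28 °C and 176, 158, 149 and 100.4 CPM at 18 °C. Of 18 genes of gut stem cells and EGFR signalling 3 rose and 4 fell, with a median of 0.07, near the shares of all genes. esg, which marks intestinal stem cells, had 5.23, 10.7, 10.4 and 11.4 CPM at 28 °C and 2.86, 2.92, 2.73 and 4.5 CPM at 18 °C, whereas the EGFR ligand spi was at a log2 fold change of -0.57. From the list of trachea and septate junctions, the junction gene mesh had a log2 fold change of 1.67. For mesh, 28 °C replicate 1 was the lowest library of its group at 130.0 to 295 CPM across the 4, against 60.4 to 89.5 CPM at 18 °C.

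**Figure D2:**
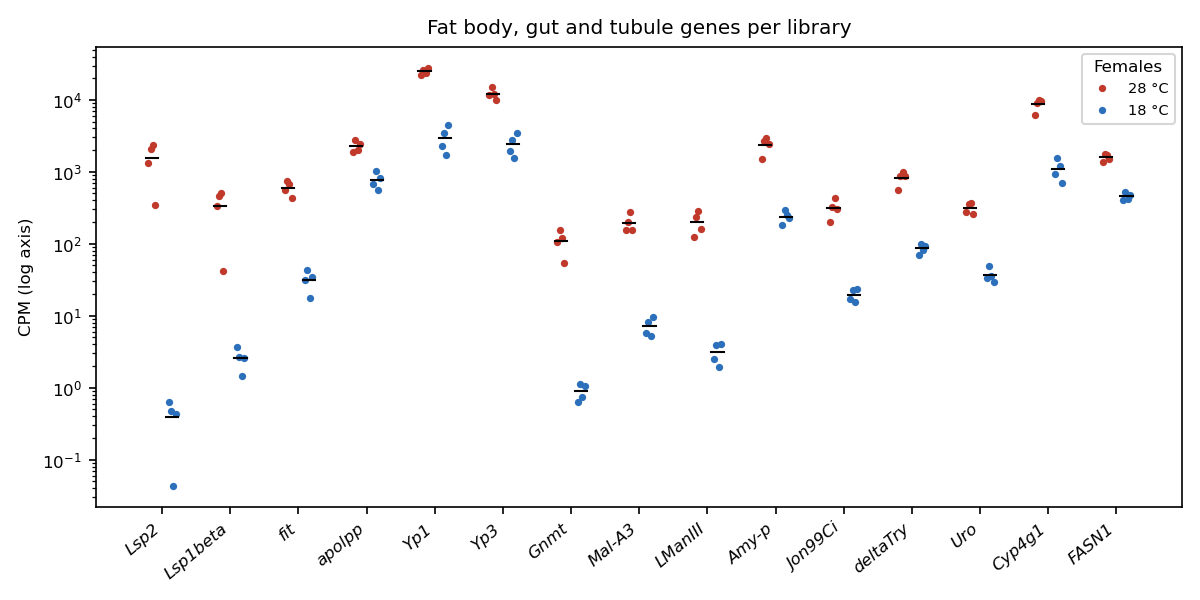
CPM on a log axis of 15 fat body, gut, tubule and lipid genes in each female library at 28 °C (red, left) and at 18 °C (blue, right), with black bars at the group means (n = 4 each). The 2 groups do not overlap in any of the 15 genes, and for Lsp2 and Lsp1beta a single library at 28 °C sits well below the others.

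Genes that make and store fat rose. Of 26 in the list of lipases and fat storage, 19 rose, with a median log2 fold change of 0.99. FASN1, fatty acid synthase, had 1376, 1767, 1729.6 and 1519.9 CPM at 28 °C and 407, 532, 417 and 478 CPM at 18 °C. AcCoAS, which supplies acetyl-CoA, had a log2 fold change of 1.34 (standard error 0.11). The members that rose included both synthesis (ACC at 1.48 and Agpat3 at 1.02) and breakdown (bmm, the main triglyceride lipase, at 0.64), whereas the lipid droplet protein Lsd-2 did not pass (0.26). SREBP and Mondo, regulators of lipid and sugar genes, did not pass either (0.06 and -0.06).

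Of 10 genes for very long fatty acids and cuticular hydrocarbons, 8 rose. Cyp4g1, the oenocyte enzyme that makes hydrocarbons, had 6074, 8975, 9953 and 9768 CPM at 28 °C and 936, 1573, 1196 and 702 CPM at 18 °C. The female elongase eloF had 119.7, 196, 210.4 and 208 CPM at 28 °C and 32.7, 45.9, 49.5 and 30.9 CPM at 18 °C. Of the genes of fatty acid oxidation 10 of 19 rose too, with a list median of 0.28. Acox3, a peroxisomal oxidase, had a log2 fold change of 1.70, and CPT2, which passes fatty acids into mitochondria, had 0.62.

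Carbohydrate metabolism changed in part. In the trehalose, glycogen and gluconeogenesis list 6 of 12 rose and 1 fell, or 2 fell without 28 °C replicate 1. Tps1, which makes the blood sugar trehalose, had 564, 689.6, 780.2 and 756 CPM at 28 °C and 180.1, 308, 199 and 206 CPM at 18 °C, and Treh, which splits it, had a log2 fold change of 1.08. fbp, of gluconeogenesis, had 1.25. Glycolysis had 3 rises and 2 falls among 15, with Hex-C, a hexokinase of the fat body, at 1.44 and Pgk at -0.41, shares near those of all genes. The falls numbered 1 when any library except 18 °C replicate 4 was left out, 3 without that library, and 1 to 6 over 12 other scalings or sample sets. In the pentose phosphate and NADPH list 6 of 9 rose, led by Men (1.21), which yields NADPH for fat synthesis. The tricarboxylic acid cycle had 5 rises and 4 falls among 19: kdn, citrate synthase, was at 0.85 and SdhB at -0.59. The count of rises in that cycle was 3 without any 1 of 18 °C replicates 1 and 4 or 28 °C replicates 2, 3 and 4, and the count of falls was 2 without 18 °C replicate 1 or 28 °C replicate 2.

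Methyl group metabolism changed at a few genes by a large amount. Gnmt, glycine N-methyltransferase, which consumes S-adenosylmethionine (chromosome 3R, 12674608 to 12676084, dm6), had 104, 154, 121 and 53.4 CPM at 28 °C and 0.641, 1.11, 0.738 and 1.07 CPM at 18 °C. Its level at 24 °C was 1.91 to 7.14 CPM, between the other temperatures. The log2 fold change of Gnmt was 6.91 (standard error 0.38, edgeR adjusted p = 2.99e-06). Sardh, which breaks down the sarcosine that Gnmt makes, had 10.3, 12.6, 11.8 and 7.52 CPM at 28 °C and 2.14, 2.87, 1.95 and 2.19 CPM at 18 °C, and the folate enzyme pug had a log2 fold change of 2.44. In the same list of 15, 5 rose and 4 fell: Cbs, Ahcy, Sam-S and Cth, which make S-adenosylmethionine or carry its sulphur on to cysteine, had log2 fold changes of -0.94, -0.52, -0.41 and -0.29. The fall of Cth passed in 1 of the 8 fits that each left out a library.

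Genes of nitrogen handling changed in both directions. Of 20 genes of purine and pyrimidine metabolism 8 rose and 6 fell, with a median of 0.17. Uro, urate oxidase, which in adults is made in the Malpighian tubules, had 275, 353, 364 and 256 CPM at 28 °C and 33, 49.6, 36 and 29 CPM at 18 °C. ry, xanthine dehydrogenase, and su(r), of pyrimidine breakdown, had log2 fold changes of 2.00 and 2.06. Prat2, of purine synthesis, had 129, 180.2, 159 and 72.8 CPM at 28 °C and 18.4, 24.5, 19.1 and 26 CPM at 18 °C. Among the falls were the synthesis genes Ctps (-0.57) and ras (-0.55), for CTP and guanine nucleotides. Of 19 tyrosine, tryptophan and pigment genes 10 rose, including Hn (1.96), v (1.26) and hgo (1.68). That count was 6 without 18 °C replicate 4, 28 °C replicate 2 or 28 °C replicate 3. In the list of proline, glutamate, arginine and urea 8 of 16 rose and 2 fell, or 5 rose without 18 °C replicate 1. Odc2, an ornithine decarboxylase of polyamine synthesis, fell (-1.53). Arginase, arg, had 16.3, 17.3, 19.7 and 27.9 CPM at 28 °C and 3.33, 5.79, 5.38 and 4.67 CPM at 18 °C. Of 19 Malpighian tubule genes 11 rose and 1 fell, with a median of 0.79. These included the channels and transporters Eglp4 (1.38), Picot (1.05) and Irk1 (0.39), and the fall was in the water channel gene Prip (-0.39).

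Detoxification families rose broadly. Of 77 cytochrome P450 genes 38 rose and 4 fell, with a median log2 fold change of 0.81. Of 29 UDP-glycosyltransferases 19 rose (1.31), and of 33 glutathione transferases 13 rose and 5 fell (0.33). The falls numbered 1 among P450 genes without 28 °C replicate 2, and 3 among glutathione transferases without 18 °C replicate 1 or 28 °C replicate 3 or 4. A mean under 0.5 CPM only at 18 °C held for 1 UDP-glycosyltransferase, and 18 of the other 28 rose. A mean under 0.5 CPM only at 28 °C held for 2 P450 genes, and of the other 75, 38 rose and 3 fell. Cyp309a2 had 18.5, 21.4, 23.5 and 15.9 CPM at 28 °C and 0.726, 1.2, 0.824 and 0.686 CPM at 18 °C, a log2 fold change of 4.52. Cyp6g1, known for insecticide resistance, had 213, 274, 332 and 304 CPM at 28 °C and 40.3, 60.6, 40.1 and 55.1 CPM at 18 °C. GstE7, GstE8 and GstE9, neighbouring genes of the epsilon class, had log2 fold changes of 1.92, 1.74 and 1.97. The catalase gene Cat, which removes hydrogen peroxide, had 674, 1019.7, 1129 and 946 CPM at 28 °C and 247, 329, 274 and 226 CPM at 18 °C, although only 7 of 23 antioxidant genes rose and the list median was 0.02. Of 16 organic anion and ABC transporters 10 rose.

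Metal-binding proteins rose. MtnB, a metallothionein that binds copper and cadmium, had 12.3, 30.5, 23 and 10.9 CPM at 28 °C and 0.0855, 0.429, 0.738 and 0.171 CPM at 18 °C (log2 fold change 5.74, standard error 0.53). MtnC, MtnD and MtnE had log2 fold changes of 2.82, 4.87 and 3.52, and MtnA, at 0.83, passed in 2 of the 8 fits that each left out a library. Tsf1, an iron carrier of the blood, had 2652, 2613, 2983 and 1599 CPM at 28 °C and 192, 404, 204 and 231 CPM at 18 °C. In all, 15 of 22 genes of metal handling rose and 1 fell, or 9 rises without 18 °C replicate 1 or 28 °C replicate 2. MtnB passed the filter on low values through its level at 28 °C, and among the other 21 genes 14 rose and 1 fell. MTF-1, the transcription factor of metallothionein genes, was at 0.23 and did not pass.

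Immune effectors rose. Of 34 antimicrobial peptide and Bomanin genes, 31 rose, with a median log2 fold change of 2.41. For 7 of the 34 the mean at 18 °C was under 0.5 CPM, so that they passed the filter on low values through their level at 28 °C. Without these, 24 of 27 rose, with a median of 2.16. Peptides of the Imd pathway, which responds mainly to Gram-negative bacteria, varied widely between libraries at 28 °C. DptA, a diptericin, had 75.9, 100.7, 7.59 and 17 CPM at 28 °C and 0.812, 1.03, 1.04 and 0.986 CPM at 18 °C. AttC, an attacin, had 147, 153, 65.6 and 36.9 CPM at 28 °C and 1.88, 2.96, 3.12 and 4.37 CPM at 18 °C. For both, replicates 1 and 2 were the high libraries at 28 °C, and all 4 lay above the 18 °C range. The log2 fold changes were 5.69 for DptA (standard error 0.85, edgeR adjusted p = 0.000509), 5.06 for DptB, 5.03 for AttC and 4.87 for the drosocin gene Dro. IM18, an immune-induced peptide, had 74.6, 47.6, 17.4 and 10.1 CPM at 28 °C and 0.47, 0.429, 0.304 and 0.472 CPM at 18 °C. IBIN, a gene induced by infection, had 24.5, 8.76, 2.15 and 0.714 CPM at 28 °C and 0.342, 0.343, 0.217 and 0.129 CPM at 18 °C, and its rise passed in 4 of the 8 fits that each left out a library.

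Bomanins are effectors of the Toll pathway. BomBc2 had 249, 244, 240.2 and 219 CPM at 28 °C and 34.7, 60.4, 37.4 and 41.4 CPM at 18 °C. IM33, from the same list but not a Bomanin, had 399, 432, 423 and 364 CPM at 28 °C and 128, 143, 138 and 154 CPM at 18 °C. Drs, drosomycin, the classical antifungal target of Toll, did not pass: it had 241, 235, 222 and 203 CPM at 28 °C and 168.6, 221, 245 and 151 CPM at 18 °C, and the groups overlapped (log2 fold change 0.20, edgeR adjusted p = 0.275). Females at 24 °C, of the same age as those at 18 °C, had 295, 244, 322 and 254 CPM of Drs and 13.2, 3.99, 18.4 and 33.8 CPM of AttC.

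Recognition proteins rose in 12 of 16 cases. PGRP-SB1 and PGRP-SC2, which cut bacterial peptidoglycan, had 39.2 ± 15.9 and 306 ± 64.6 CPM at 28 °C, against 3.32 ± 1.08 and 41.2 ± 11.3 CPM at 18 °C (SD, n = 4 each). Of 28 signalling genes of both pathways 11 rose and 3 fell, or 1 fell without 18 °C replicate 2. pirk, a brake on Imd signalling, had 35.3, 42.8, 61.4 and 24.6 CPM at 28 °C and 3.8, 4.37, 4.08 and 4.24 CPM at 18 °C, whereas the NF-kappaB factors Rel and Dif were at log2 fold changes of 0.69 and 0.67, and dl was at -0.11 without passing. nec, a serpin that restrains Toll activation, and SPE and modSP, proteases upstream of Toll, had 1.68, 1.54 and 1.19. Among thioester, Nimrod and lectin genes 8 of 18 rose, or 14 without 28 °C replicate 1. The thioester protein Tep2, an opsonin, had 288, 295, 262 and 274 CPM at 28 °C and 47.1, 67.7, 43.4 and 57 CPM at 18 °C.

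Blood cell markers gave a weaker picture. Of 13 tested, 6 rose, but 2 or 3 did so when any library other than 28 °C replicate 1 was left out. Hml had 13.4, 25.5, 28.8 and 27.3 CPM at 28 °C and 5.81, 10.1, 10.9 and 15.2 CPM at 18 °C, and NimC1 had 0.723 to 1.65 CPM at 28 °C and 0.598 to 1.43 CPM at 18 °C. PPO1, of the melanizing crystal cells, had 2.42, 5, 6.72 and 15.8 CPM at 28 °C and 1.03, 1.33, 1.69 and 2.83 CPM at 18 °C, with replicate 4 the highest. The part of blood cells in the immune changes was not tested. In the JAK/STAT list 2 of 11 rose and 2 fell, near the shares of all genes. Stat92E had a log2 fold change of 0.51, and its target Socs36E, at 0.65, passed in 2 of the 8 fits that each left out a library. The falls numbered 0 without 18 °C replicate 1, 3 or 4 or 28 °C replicate 2 or 3, and 1 without 18 °C replicate 2 or 28 °C replicate 4. At an unadjusted p under 0.05 in edgeR with all libraries, 5 of the 11 were higher and 3 lower, and in DESeq2 4 rose and 2 fell.

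**Figure D3:**
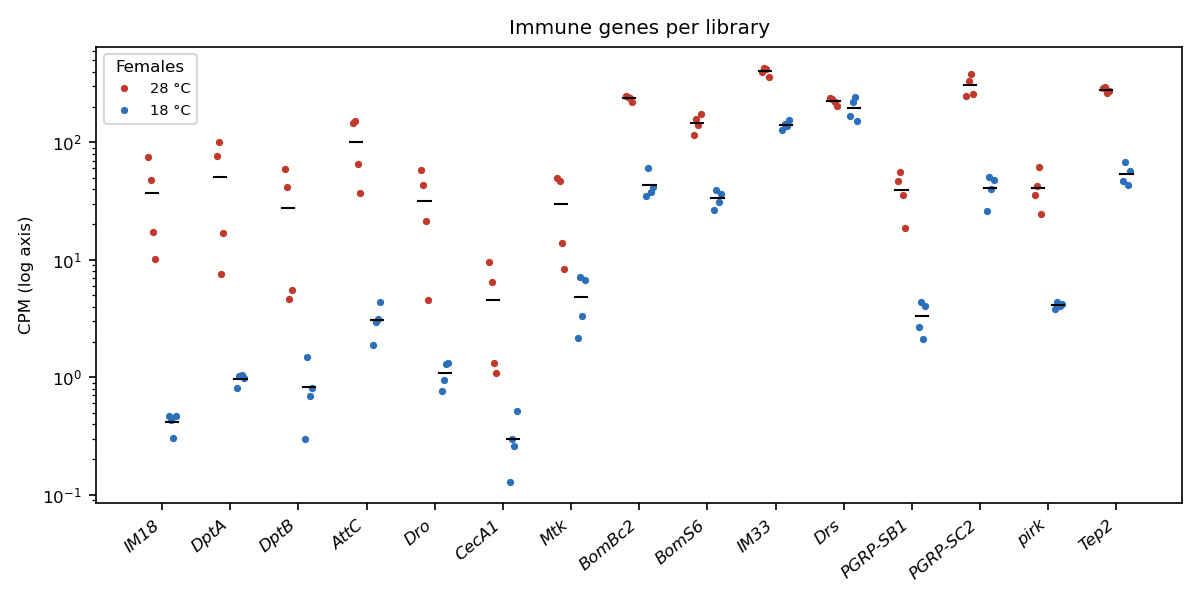
CPM on a log axis of 15 immune genes in each female library at 28 °C (red, left) and at 18 °C (blue, right), with black bars at the group means (n = 4 each). The 28 °C libraries lie above the 18 °C libraries in every gene shown except Drs, and for DptA they run from 7.59 to 100.7 CPM.

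Odorant-binding proteins moved in both directions. Of 33 tested odorant-binding and related carrier genes 14 fell and 9 rose, against 15.3% and 18.4% of all genes tested. For 1 of them the mean lay under 0.5 CPM only at 28 °C, and among the other 32, 13 fell and 9 rose. The largest falls were in proteins of the antenna. Obp83b (chromosome 3R, 5976177 to 5976817, dm6) had 0.723, 0.734, 1.6 and 1.43 CPM at 28 °C and 20.6, 20.7, 16.4 and 6.17 CPM at 18 °C (log2 fold change -3.83, standard error 0.43, edgeR adjusted p = 9.03e-05). a10 had 1.4, 1.33, 1.97 and 2.52 CPM at 28 °C and 20.6, 22.2, 15.9 and 6.13 CPM at 18 °C, and Os-C had 1.53, 1.47, 2.24 and 1.86 CPM at 28 °C and 17.73, 18.5, 12.5 and 5.02 CPM at 18 °C. In all 3, replicate 4 was the lowest library at 18 °C and still exceeded the 28 °C libraries.

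Females at 24 °C had low values of the same genes. Obp83b had 2.15, 2.21, 1.04 and 2.34 CPM at 24 °C, a10 had 1.76, 2.13, 0.949 and 4.14 CPM and Os-C had 2.06, 1.61, 1.31 and 3.17 CPM. These flies were 45 days old, as were those at 18 °C. Orco, the co-receptor that odorant receptors need (chromosome 3R, 5407183 to 5412406, dm6), had 8.76, 11.8, 4.12 and 4.89 CPM at 18 °C, 1.97, 4.82, 1.18 and 1.88 CPM at 24 °C and 0.425, 0.367, 1.1 and 1 CPM at 28 °C. Of 16 tested chemoreceptors 4 fell, including Ir75a (-1.87) and Ir41a (-1.39), while Ir21a, a receptor of cool-sensing neurons, had 0.766, 1.33, 1.37 and 1.57 CPM at 28 °C and 0.299, 0.472, 0.26 and 0.171 CPM at 18 °C. Ir21a was the only rise, and it passed the filter on low values through its level at 28 °C. For 4 of the 16, Ir21a included, the mean lay under 0.5 CPM at 1 of the temperatures. Among the 12 others 3 fell, and the other 26 of the 42 chemoreceptors in the table were under the filter on low values.

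Other odorant-binding proteins rose. Obp99a had 58.4, 63.3, 75.7 and 79.7 CPM at 28 °C and 3.76, 8.1, 5.64 and 8.49 CPM at 18 °C, Obp99b had 17.1, 43.9, 52.8 and 7.62 CPM at 28 °C and 0.983, 1.76, 2.13 and 2.01 CPM at 18 °C, and Obp99c had a log2 fold change of 1.41. For Obp99b, replicates 1 and 4 were the low libraries at 28 °C.

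**Figure D4:**
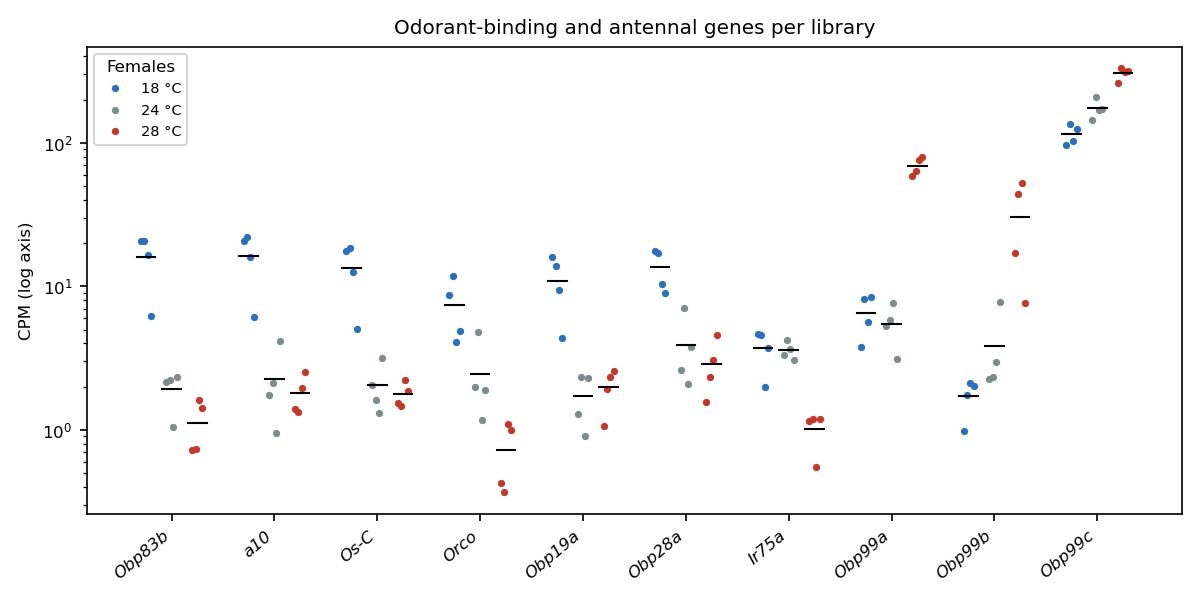
CPM on a log axis of 10 odorant-binding and antennal genes in each female library at 18 °C (blue), 24 °C (grey) and 28 °C (red), with black bars at the group means (n = 4 each). Obp83b, a10, Os-C, Obp19a and Obp28a are low at both 24 and 28 °C, below every 18 °C library, whereas Obp99a is raised only at 28 °C.

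The eye was examined as another tissue of the head. Of 30 phototransduction genes of the eye, 5 rose and 2 fell, shares of 16.7% and 6.67% that lie below those of all genes. The median log2 fold change was 0.06, which ranged from -0.04 to 0.10 over 12 other scalings or sample sets. Arr1, an arrestin of photoreceptors, had 225, 273, 236 and 412 CPM at 28 °C and 673, 675, 631 and 668 CPM at 18 °C, while its partner Arr2 had 585, 773, 621 and 932 CPM at 28 °C and 699, 724, 636 and 731 CPM at 18 °C and overlapped. ninaD, a scavenger receptor for carotenoid uptake that also acts in the gut, rose with 17.9, 40.9, 33.4 and 40.8 CPM at 28 °C and 2.31, 2.79, 3.08 and 3.6 CPM at 18 °C. The count of rises in this list was 2 without 28 °C replicate 2, and 3 without 28 °C replicate 4, 18 °C replicate 2 or 18 °C replicate 3. Without 28 °C replicate 4, 6 of the 30 fell.

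Of 33 neuronal genes 4 fell and 1 rose. The falls were 12.1% of the list, below the 15.3% of all genes that fell. Of the 33 log2 fold changes 29 were negative, with a median of -0.31. The falls numbered 2 without 28 °C replicate 3 or 18 °C replicate 1, 2 or 4, and 8 without 28 °C replicate 4. Over 12 other scalings or sample sets 3 to 12 fell. elav, a pan-neuronal marker, had 15.4 to 23.8 CPM at 28 °C and 19.5 to 23.9 CPM at 18 °C, and the synaptic gene nSyb had 78.8 to 134 CPM at 28 °C and 66.9 to 88 CPM at 18 °C. The calcium channel gene Ca-alpha1D had 19.9, 27.5, 26.2 and 29.6 CPM at 28 °C and 65.2, 72.7, 54.6 and 44.5 CPM at 18 °C. Ddc, of dopamine and serotonin synthesis, fell (-0.66), and ple, which acts before it, was at 1.01 and passed in 2 of the 8 fits that each left out a library. The octopamine and tyramine receptor Oct-TyrR had 2.68, 3.26, 3.52 and 3.24 CPM at 28 °C and 11.5, 11.9, 12.4 and 11.9 CPM at 18 °C, with a narrow spread in both groups. It was 1 of 5 falls among 27 amine and acetylcholine receptors, 3 without 18 °C replicate 1 or 2. These 5 were 18.5% of the list, near the 15.3% of all genes.

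Some channels gated by temperature rose. TrpA1, a warmth-activated channel, had 6.13, 8.4, 7.46 and 10 CPM at 28 °C and 2.26, 1.59, 1.52 and 2.49 CPM at 18 °C, and pyx, another heat-activated channel, had 14.6, 16.6, 16.6 and 18.6 CPM at 28 °C and 9.06, 8.96, 9.33 and 10.1 CPM at 18 °C. In all, 6 of 16 TRP and ppk channel genes rose and 1, ppk29, fell (-1.12), or 2 fell without 28 °C replicate 4. Without 18 °C replicate 3 or 28 °C replicate 2, 3 rose.

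Among 41 neuropeptides and hormones 11 rose and 4 fell, or 2 fell without 18 °C replicate 1, 2 or 3 or 28 °C replicate 2 or 3. In males 2 of 43 rose and 17 fell, counts for which the share of all genes in males is not given here. The difference between the sexes, tested in a fit of both, was more positive in females for 13. It was so for 8 with library totals and for 11 with DESeq2. CCHa2, a nutrient-dependent peptide of gut and fat body that acts on insulin-producing cells, had 144, 214, 178 and 119 CPM at 28 °C and 14.6, 19.9, 17.1 and 17.66 CPM at 18 °C (log2 fold change 3.24, edgeR adjusted p = 3.08e-06). Nplp2 had a log2 fold change of 1.66, and the limostatin gene Lst, a brake on insulin release, had 0.97. InR, the insulin receptor, had 46.7, 45.6, 42.7 and 44.3 CPM at 28 °C and 78.5, 69, 71 and 68.3 CPM at 18 °C. It was 1 of 3 falls among 22 insulin and TOR genes, a share of 13.6% that lies below the 15.3% of all genes. egr, the fly tumour necrosis factor, had 24.9, 36.5, 39.6 and 33.4 CPM at 28 °C and 12.8, 15.9, 13.7 and 14.9 CPM at 18 °C.

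Of 14 clock genes 2 rose and 2 fell, shares at or below those of all genes. per had 5.53, 7.25, 7.73 and 7.66 CPM at 28 °C and 17, 20.2, 15.8 and 15.8 CPM at 18 °C, and vri had a log2 fold change of -0.73, whereas cry and tim had 1.12 and 0.76. The 10 others did not pass. Without 28 °C replicate 1, 5 rose. By the study's methods, flies of every group were frozen within the same late-morning window. In hormone signalling, nvd, an early enzyme of ecdysone synthesis, had 1.28, 1.38, 1.1 and 1.33 CPM at 28 °C and 3.25, 4.76, 4.25 and 5.1 CPM at 18 °C, and Kr-h1, a target of juvenile hormone, had a log2 fold change of 0.99.

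Genes of contractile proteins of muscle fell in part. Of 30 sarcomere genes 14 fell and 1 rose, with a median log2 fold change of -0.40. TpnC4, a troponin C of flight muscle, had 4.47, 8.44, 8.51 and 5.38 CPM at 28 °C and 37.7, 35.2, 38.8 and 25 CPM at 18 °C, while the isoform TpnC47D had 8.59, 10.8, 12.8 and 11 CPM at 28 °C and 4.57, 4.5, 4.77 and 3.6 CPM at 18 °C. Act88F, the actin of indirect flight muscle, had 36.6, 25, 46.1 and 42.9 CPM at 28 °C and 106, 72.6, 79.6 and 63.1 CPM at 18 °C. sls, which encodes the titin-like elastic filament, had 274 ± 25.8 CPM at 28 °C against 481 ± 59.8 CPM at 18 °C (± SD of 4 libraries). Mhc, the muscle myosin heavy chain, did not pass, with 479.7, 596, 692 and 643 CPM at 28 °C and 584, 598, 510.4 and 516 CPM at 18 °C.

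RNA of protein synthesis genes fell by small amounts over many genes. Of 27 ribosome biogenesis genes 17 fell, with a median log2 fold change of -0.38. Fib, fibrillarin, which modifies ribosomal RNA, had 93.3, 80.6, 85 and 81.6 CPM at 28 °C and 175, 176, 209 and 151 CPM at 18 °C. Nop56, its partner, had 154 ± 11.3 CPM at 28 °C against 240.1 ± 14.6 CPM at 18 °C (± SD of 4 libraries). Of 73 mitochondrial ribosomal proteins 44 fell (median -0.37), with mRpL44 at 31.1, 28.2, 27.3 and 25.8 CPM at 28 °C and 42.2, 42.8, 47.3 and 46.8 CPM at 18 °C. Without 18 °C replicate 1, 18 °C replicate 2 or 28 °C replicate 3 the count was 29. Of 33 tRNA synthetases 17 fell (median -0.26), and of 52 translation factors 16 fell (median -0.21). eIF6, which acts in ribosome assembly, had 63.2, 52.1, 61.9 and 56.8 CPM at 28 °C and 91.8, 93.8, 98.4 and 87.8 CPM at 18 °C, without overlap.

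These shifts are of the same order as the effect of scaling, and their counts depend on single libraries. The synthetases that fell numbered 9 or 10 without any 1 of 18 °C replicates 1, 2 and 3 or 28 °C replicates 2, 3 and 4. Translation factors that fell numbered 8 to 10 without 18 °C replicate 1, 2 or 3 or 28 °C replicate 2 or 3. Over 12 other scalings or sample sets the medians stayed below 0, between -0.48 and -0.34 for ribosome biogenesis and between -0.31 and -0.17 for translation factors. Of 33 proteasome genes 14 fell (median -0.22), but only 1 did without 18 °C replicate 1, 2 or 3 or 28 °C replicate 2 or 4, and 3 did without 28 °C replicate 3. Of 70 nuclear genes of the respiratory chain 8 fell, a share of 11.4% that lies below the 15.3% of all genes. That count was 3 to 5 without 18 °C replicate 1, 2 or 3 or 28 °C replicate 2, and 16 without 18 °C replicate 4. Over the 12 other scalings or sample sets it was 5 to 28.

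Males at the same temperatures differed from females in many genes of these lists. The shares of all genes that rose or fell in males are not given here, so male counts lack a background. Outside these lists, 20 of 33 neuronal genes and 13 of 30 eye genes fell in males, counts that cannot be compared with a male background here. The difference between the sexes, the change in females minus the change in males, passed in 1953 of 10897 genes, or 17.9%, and in 3273 without female 28 °C replicate 1. It was more positive in females in 66.6% of these with TMM scaling, and in 35.5% with library totals and 37.8% with DESeq2, while the median difference over all genes moved from 0.13 to -0.07 and -0.08. For translation factors the difference was more negative in females for 23 of 52 genes, against 38 with library totals. In males 15 of the 52 rose and 3 fell, with a median of 0.15. For tRNA synthetases it was more negative in females for 14 of 33, and for ribosome biogenesis for 15 of 27, with male medians of 0.23 and 0.08. IleRS, the isoleucine synthetase, had a log2 fold change of -0.51 in females and 0.16 in males (difference -0.65, edgeR adjusted p = 4.83e-05). Respiratory chain genes ran the other way: 62 of 74 fell in males, with a median of -0.56, and the change was more positive in females for 18, or for 6 with library totals.

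**Figure D5:**
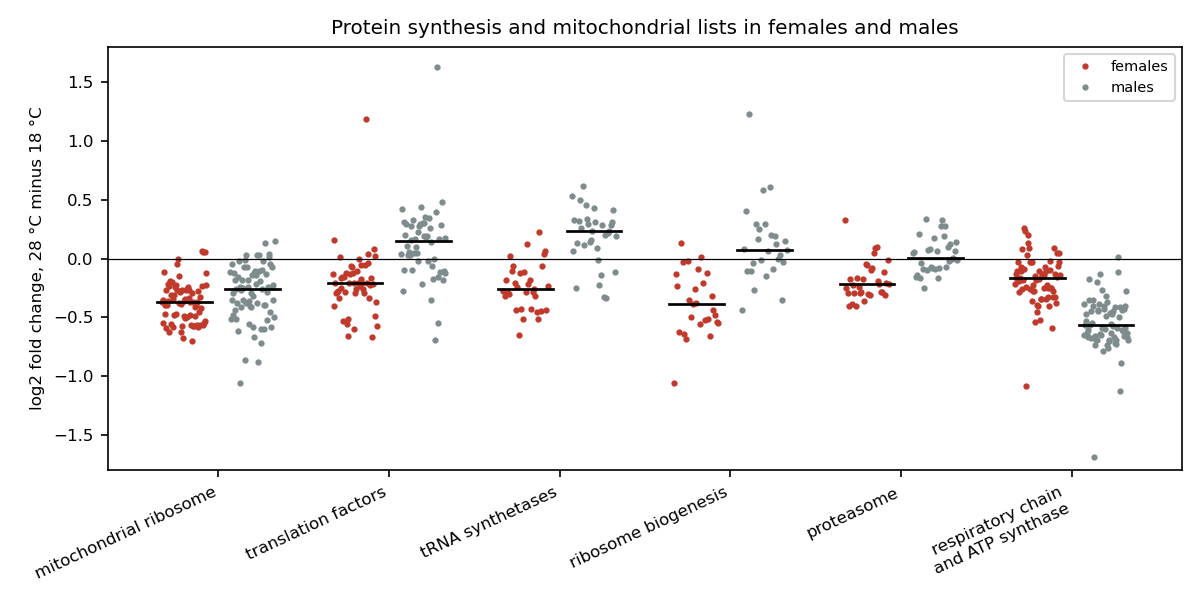
Log2 fold change between 28 and 18 °C of each tested gene in 6 lists, in females (red, left) and in males (grey, right), with black bars at the medians. Female medians lie below 0 in all 6 lists, and male medians lie at or above 0 for translation factors, tRNA synthetases, ribosome biogenesis and the proteasome.

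Several of the largest changes in females also differed from those in males. Lsp2 had a log2 fold change of 4.85 in males (difference 7.06, edgeR adjusted p = 9.81e-05), and Gnmt had 2.65 (difference 4.29, edgeR adjusted p = 1.16e-05). Npc1b had a log2 fold change of -1.57 in males, opposite in sign to that in females (difference 5.02, edgeR adjusted p = 0.000114). Of the 28 trypsin and Jonah proteases, 4 rose in males and the difference was more positive in females for 10. For maltases and mannosidases 16 of 18 rose in males, and the difference passed for 4. For the immune effectors 24 of 34 rose in males, and the difference passed for 4. The antennal genes Obp83b and a10 had log2 fold changes of -2.52 and -2.19 in males, and a difference from females did not pass (edgeR adjusted p = 0.356 and 0.473).

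Some of the largest changes lay outside these groups. CG15533, a predicted sphingomyelinase (chromosome 3R, 30428820 to 30431362, dm6), had 55.8, 65.6, 106 and 87.4 CPM at 28 °C and 0.47, 0.943, 0.477 and 1.07 CPM at 18 °C, a log2 fold change of 6.72 (standard error 0.31). CG3739, a predicted serine peptidase, had 98, 117, 169.5 and 79.1 CPM at 28 °C and 3.2, 3.39, 2.56 and 5.36 CPM at 18 °C, and CG18179, another, had 13.7, 31.3, 32.5 and 13.7 CPM at 28 °C and 0.214, 0.9, 0.304 and 0.6 CPM at 18 °C. CG34040 had 9.7, 17.3, 27.7 and 18.3 CPM at 28 °C and 0.0427, 0.0429, 0.13 and 1.03 CPM at 18 °C, with 18 °C replicate 4 apart from its group.

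Among the falls, narya, which is needed for meiotic recombination in the oocyte (chromosome X, 19475063 to 19476055, dm6), had 0.298, 0.0459, 0.0915 and 0.238 CPM at 28 °C and 2.14, 2.36, 2.91 and 2.49 CPM at 18 °C, from 15 reads in all at 28 °C. phu had 0.681, 1.28, 1.1 and 3.09 CPM at 28 °C and 18.1, 24, 30.2 and 23.5 CPM at 18 °C. The dynein gene Dhc98D had 0.17, 0.459, 0.229 and 0.19 CPM at 28 °C and 1.97, 2.83, 2.17 and 2.27 CPM at 18 °C. dao had 2.21, 4.08, 3.11 and 4.38 CPM at 28 °C and 21.2, 22.2, 22.4 and 21.6 CPM at 18 °C, and CG42565 had 6.85, 6.24, 7.68 and 6.66 CPM at 28 °C and 40.6, 41.1, 48.1 and 40 CPM at 18 °C, with 18 °C replicate 3 the highest. The tubulin gene alphaTub84D, of the alpha-tubulin family, had 89.8, 94.8, 91.8 and 90.8 CPM at 28 °C and 182, 201, 205 and 184 CPM at 18 °C.

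Of 282 tested noncoding transcripts 30 rose and 33 fell, shares of 10.6% and 11.7% that lie below those of all genes. Of these, 24 lay under 0.5 CPM only at 18 °C and 13 only at 28 °C, and among the other 245, 21 rose and 29 fell. Without 28 °C replicate 3, 21 fell. lncRNA:CR43928 had 0.0425, 0.0918, 0.0915 and 0.0952 CPM at 28 °C, or 7 reads over the group, and 5.04, 5.19, 4.17 and 2.23 CPM at 18 °C. lncRNA:CR43417 had 21.9, 31.7, 31.5 and 25.3 CPM at 28 °C and 1.67, 1.89, 2.3 and 1.71 CPM at 18 °C. The antisense transcript asRNA:CR46195 had 23.7, 31.3, 23.24 and 42.9 CPM at 28 °C and 0.598, 1.37, 0.564 and 1.07 CPM at 18 °C. Strand is not given in the sources used here, so reads of an antisense transcript and of a gene that overlaps it cannot be told apart.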

How the data were processed

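Poly-A RNA of pooled whole flies was sequenced as paired reads on a BGISEQ-500. The submitters' processing notes name HISAT, StringTie, Cufflinks, Bowtie2, RSEM and the dm6 build, and a strand-specific protocol is not given in the sources used here. The authors deposited expected counts per gene from RSEM, estimates in which a read shared by several genes is divided, so that 23.23% of values were not whole. These were rounded. The table holds 11152 features and no value of 0 in any library, so genes silent in a library, including defining markers of the male glands and of late follicles, are not analysed here. Of the features, 11073 were matched by gene ID to RefSeq for current symbols and coordinates, and 1839 symbols were updated.

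Genes with a mean of at least 0.5 CPM over the 8 libraries (10355) were tested with edgeR 4.0.16 (quasi-likelihood, TMM factors, R 4.3.3), 28 °C minus 18 °C, with Benjamini-Hochberg adjustment over all genes tested and a threshold of 0.01. Of these, 120 had a mean under 0.5 CPM only at 18 °C and 90 only at 28 °C. The difference between the sexes was tested in a fit of all 23 libraries, in which the male changes were also estimated. On simulated data 171 of 200 changed genes were recovered, 76 of 100 at 2-fold and 95 of 100 at 4-fold, with 3 false calls. In that simulation 200 of 10355 genes changed, with equal numbers of rises and falls and the spread that edgeR estimated. The data gave 3490 calls with larger rises than falls, so the simulation does not test the scaling or small shifts. The labels call the libraries biological replicates, each a separate pool, and p-values measure the spread between these pools.

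Genes named were the 15 largest rises and 15 largest falls whose libraries did not overlap (outside Turandot, heat shock and ribosomal protein genes), up to 4 members of each list by adjusted p, and defining markers. ACC, Ahcy, alphaTry, bmm, Cth, Ctps, Dif, dl, Dro, Drs, Jon65Aii, Jon74E, Lsd-2, Mal-A5, Mondo, MTF-1, MtnA, Obp99b, Prip, ras, Rel, Sam-S and SREBP were added after their values were seen. Obp19a, Obp28a, CecA1 and Mtk, shown in the figures, were also chosen outside this rule. The members and gene lists were chosen with earlier results of these data known. Same-numbered replicates did not deviate together (correlations between -0.307 and 0.139), so the numbers do not pair the samples. Alternatives were DESeq2 1.42.0, other scalings and filters, other sample sets, a replicate block and leaving out each library.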

Additional observations from a re-analysis of the deposited data

Results flagged for a closer look

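Among 64 groups of 4 libraries scanned for the genes of largest change, 4 held a library far from the other 3, and chance gives about 1 in 20. At 18 °C, replicate 4 had 1.03 CPM of CG34040, against 0.0427 to 0.13 CPM in the other 3, and replicate 3 had 48.1 CPM of CG42565, the highest of its group. At 28 °C, replicate 1 had 0.0425 CPM of lncRNA:CR43928, which is a single read, and 1.74 CPM of CG31875, against 0.596 to 0.732 CPM in replicates 2 to 4.

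Of the 30 genes of largest change, 17 changed by a different amount in females than in males when the difference itself was tested (edgeR, all 23 libraries, adjusted p under 0.01), against 17.9% of all genes. These 30 were chosen for the size of their change in females, which favours a difference in that direction. On the log2 scale, female minus male, the difference was 7.06 for Lsp2, 4.23 for Lsp1beta, 4.29 for Gnmt, 4.11 for CG15533, 4.69 for IM18, 3.52 for LManIII, 3.18 for CG3739 and 2.94 for asRNA:CR46195, all of which rose in females. Among genes that fell in females it was -4.51 for CG31875, -4.19 for CR43309, -4.02 for lncRNA:CR43928, -3.47 for narya, -3.45 for Dhc98D, -2.73 for CG14053, -1.99 for dao, -1.94 for CG10725 and -1.55 for CG42565. LManIII also rose in males, with a log2 fold change of 2.52, and CG10725 had -1.18 there.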

How the results depend on the processing

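The count of changed genes, 3490, stayed within 1.5 times under every alternative run, from 2492 to 4418 when 1 library was left out and at 4239 in DESeq2, 4019 with the 12 female libraries, 4272 with all 23, 3966 with library totals, 3342 with at least 0.5 CPM in every library, 3476 with no filter and 5164 at an adjusted p of 0.05. The share of higher genes, 54.7%, was 52.2% with the 12 female libraries, 46.1% with all 23, 42.1% with library totals, 50.1% at an adjusted p of 0.05, at most 64.1% with another library as the TMM reference, and 54.0% to 61.2% when 1 library was left out. The cause was not tested. With a replicate block it was 59.5%, with 3073 genes changed, although the replicate numbers gave no sign of pairing the samples. The sex difference passed in 1953 genes and in 1496 to 3273 when 1 library was left out, the highest without female 28 °C replicate 1. With a replicate block it was 2111. Of 314 genes chosen by the naming rule that passed, 308 to 314 still passed in DESeq2, with library totals, with all 23 libraries or with the block, and 290 to 314 with 1 library left out. None of these 314 reversed under these alternatives. Signs turned in genes that had not passed: leaving out 1 library gave -0.123 to 0.0168 for vas, -0.0807 to 0.153 for Arr2 (-0.0427 with library totals) and -0.19 to 0.0089 for elav. Depth limits genes under 0.5 CPM, and small shifts depend on the scaling.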

Other observations

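Several groups outside those described above were also compared between females at 28 °C and at 18 °C. Their counts are read against the 18.4% of all genes that rose and the 15.3% that fell. Of 20 genes for chitin enzymes and related growth factors 10 rose, among them Idgf1 and Cda9 (log2 fold changes 2.03 and 2.63), and of 25 cuticle protein genes 8 rose and 2 fell, or 1 fell when any library except 28 °C replicate 4 was left out. Of these 25, 2 had a mean under 0.5 CPM only at 18 °C and 1 only at 28 °C. Among the other 22, 6 rose and 2 fell. Among 20 genes of trachea and septate junctions 8 rose, including Lac (0.62) and Nrg (0.54). Of 10 glial genes 3 rose, or 5 without 28 °C replicate 1 and 2 without any other library. Gs2, which makes glutamine in glia and elsewhere, had a log2 fold change of 1.22. Send2, an endopeptidase of the spermathecae, had 2.04, 4.08, 2.56 and 4.62 CPM at 28 °C and 0.0427, 0.429, 0.13 and 0.0429 CPM at 18 °C. It passed the filter on low values through its level at 28 °C. Of 14 esterases 8 rose and 1 fell (0 without 28 °C replicate 2, 2 without 28 °C replicate 4), and of 16 serpins 7 rose and 2 fell, led by Spn88Eb (2.98). Of the serpins, 1 lay under 0.5 CPM only at 28 °C, and among the other 15, 7 rose and 1 fell.

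In the list of endoplasmic reticulum stress 8 of 26 genes rose, or 5 without 18 °C replicate 1 or 28 °C replicate 2. Pdi, a protein disulfide isomerase, had a log2 fold change of 0.71. Of 26 autophagy genes 6 rose and 1 fell, or 3 rose without 28 °C replicate 3 and 2 fell without 28 °C replicate 1 or 4. The rises were 23.1% of that list, near the share of all genes, and its median log2 fold change was 0.03. Xrp1, a transcription factor of the stress response, had 401, 589, 590.3 and 557 CPM at 28 °C and 344, 367, 304 and 312 CPM at 18 °C. Of 40 genes of DNA replication and the cell cycle 3 fell, led by Cdk4 (-0.53), a share of 7.5% that lies below that of all genes. The falls numbered 15 without 28 °C replicate 1 and 1 without any 1 of 18 °C replicates 1, 3 and 4 or 28 °C replicates 2, 3 and 4. Ldh, lactate dehydrogenase, had a log2 fold change of 1.16, and smp-30 had 2.06. The receptor Egfr, which drives growth of intestinal stem cells among other tissues, had 68.9, 87.1, 75.7 and 71.9 CPM at 28 °C and 37.2, 40.6, 31.2 and 37.8 CPM at 18 °C, while its ligand spi had a log2 fold change of -0.57.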
